A study of Mus musculus with 4 samples.

Results

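The intragenic peaks away from gene ends were 601 of the 3187 open regions listed for mouse spleen CD8+ T cells by ATAC-seq, an assay that sequences the places where Tn5 transposase can insert adapters into chromatin. A peak was a member if it overlapped the span of at least 1 protein-coding gene, on RefSeq gene spans of GRCm38.p6, and lay more than 1000 bases from every protein-coding gene end. The 3 peaks of a ribosomal RNA region on chromosome 17 were left out, and the other peaks were 1983 gene-end and 600 intergenic peaks. Donor animals were OTI:Cas9 mice, and Cas9 protein loaded with a guide RNA was put into the cells by electroporation. The guide was sgNTC in 2 libraries, labelled Prdm12-wt, and sgPrdm12 in the other 2, labelled Prdm12-ko. The series text calls the control cells non-edited, whereas the treatment protocol names sgNTC as their guide. Replicate 1 of each group belonged to batch 1 and replicate 2 to batch 2. The labels state neither the animals' age nor a strain beyond OTI:Cas9. The labels do not tell if replicates are separate animals or cultures; p-values therefore measure only how far these libraries spread, and that spread may be technical.

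The reads in peaks outside the ribosomal region numbered 26331 (replicate 1) and 53802 (replicate 2) with sgNTC, and 26843 (replicate 1) and 18909 (replicate 2) with sgPrdm12. Below, values are given in that order. No peak overlapped the Prdm12 span (chr2:31635026-31655795) or lay within 1000 bases of it, so the edit could not be checked. None of the 11 CD8 T cell markers examined, among them Cd8a, Cd3e and Lck, had a gene-end or intragenic peak, and the same held for 8 B cell, 8 myeloid and 5 NK cell markers. Of 3 CD4 T cell markers, Zbtb7b had a gene-end peak. The table thus gave no check of the labelled cell type. In a bulk library, fewer cells with an open region and less opening per cell cannot be told apart.

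Open chromatin inside a gene can mark a promoter of a shorter transcript, where RNA polymerase is loaded downstream of the gene's outermost start. It can also mark an enhancer, a stretch bound by transcription factors that acts on a promoter at a distance; in T cells many enhancers of receptor, cytokine and transcription factor genes lie in introns. Promoters tend to be rich in CpG and open in many cell types, whereas enhancers tend to be open in fewer. PRDM12, a member of the PRDM family of zinc finger regulators, is needed for nociceptors to form.

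The intragenic peaks were set against annotated starts, using RefSeq start windows that run from 250 bases before to 50 bases after a start. Of the 601 peaks, 121 overlapped such a window and are called internal-start peaks here. Another 458 overlapped none and are called inner peaks, and 22 peaks, on a chromosome without entries in the start table, were not classed. The start table does not cover every gene: 337 of the 458 inner peaks lay in a gene with a window in it, and for the other 121 an overlap could not be looked for in the host gene. Among the internal-start peaks, 113 overlapped a start of the gene they lay in, 10 of them together with a non-coding gene's start, and 8 overlapped a non-coding gene's start only. This division was chosen after the counts had been seen, but it uses the annotation and no count.

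The 250 bases before an internal start are shown for the 5 highest peaks that hold that whole stretch and overlap 1 window, since they show what kind of DNA was open inside these genes, and for Prdm10, the PRDM family member among the internal-start peaks. Capitals mark the motifs searched on both strands, and each sequence reads 5′ to 3′ on the gene's strand (RefSeq, GRCm38.p6). The stretches lie at chr7:24399378-24399627 (plus strand) for Smg9, chr7:28810640-28810889 (plus) for Hnrnpl, chr11:96977689-96977938 (minus) for Sp2, chr14:55560673-55560922 (plus) for Dcaf11, chr11:116030066-116030315 (plus) for Unk and chr9:31280299-31280548 (plus) for Prdm10.
Smg9: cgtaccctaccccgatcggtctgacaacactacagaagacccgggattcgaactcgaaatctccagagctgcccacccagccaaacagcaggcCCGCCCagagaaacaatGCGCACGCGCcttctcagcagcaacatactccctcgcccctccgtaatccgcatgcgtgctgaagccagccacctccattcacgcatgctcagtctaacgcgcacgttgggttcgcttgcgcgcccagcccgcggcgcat
Hnrnpl: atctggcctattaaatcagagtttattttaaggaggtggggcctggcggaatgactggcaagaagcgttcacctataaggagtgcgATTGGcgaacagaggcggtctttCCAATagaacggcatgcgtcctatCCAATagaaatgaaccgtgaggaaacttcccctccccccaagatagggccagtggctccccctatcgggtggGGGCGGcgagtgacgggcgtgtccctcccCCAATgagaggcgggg
Sp2: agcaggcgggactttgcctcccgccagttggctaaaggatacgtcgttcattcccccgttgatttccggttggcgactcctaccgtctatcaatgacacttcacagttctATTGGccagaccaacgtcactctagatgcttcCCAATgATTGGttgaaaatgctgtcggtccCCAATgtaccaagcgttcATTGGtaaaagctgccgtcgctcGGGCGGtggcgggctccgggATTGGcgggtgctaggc
Dcaf11: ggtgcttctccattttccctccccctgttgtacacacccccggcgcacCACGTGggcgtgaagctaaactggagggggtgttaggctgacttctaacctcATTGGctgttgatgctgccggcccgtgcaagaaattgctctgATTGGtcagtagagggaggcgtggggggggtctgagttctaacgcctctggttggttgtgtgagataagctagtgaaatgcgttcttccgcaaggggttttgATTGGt
Unk: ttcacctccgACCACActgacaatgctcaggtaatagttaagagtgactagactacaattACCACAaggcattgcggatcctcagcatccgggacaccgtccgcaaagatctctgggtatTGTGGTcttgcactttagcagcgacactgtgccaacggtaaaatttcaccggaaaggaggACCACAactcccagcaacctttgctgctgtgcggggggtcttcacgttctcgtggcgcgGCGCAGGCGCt
Prdm10: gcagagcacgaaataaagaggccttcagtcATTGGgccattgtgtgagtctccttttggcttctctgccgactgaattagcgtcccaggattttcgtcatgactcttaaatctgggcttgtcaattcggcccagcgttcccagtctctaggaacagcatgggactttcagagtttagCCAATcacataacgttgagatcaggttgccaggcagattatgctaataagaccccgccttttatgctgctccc

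The motifs searched were the GC box, bound by SP and KLF factors and spelled GGGCGG, and the motif of ETS factors, spelled CCGGAAG. The CCAAT box, bound by NF-Y, was searched as CCAAT, and the E box, bound by MYC and USF factors, as CACGTG. The motif of RUNX factors was searched as TGTGGT, and the TATA box of classical core promoters as TATAAA. The motif of AP-1 factors was searched as TGANTCA and the CRE, bound by CREB, as TGACGTCA, while NRF1 is given by its name alone. Sp2, itself an SP family gene, held 6 CCAAT boxes and 1 GC box, and Hnrnpl held 4 CCAAT boxes and 1 GC box. Smg9 held 1 GC box and 1 NRF1 motif, Dcaf11 held 3 CCAAT boxes and 1 E box, Unk held 4 RUNX motifs and 1 NRF1 motif, and Prdm10 held 2 CCAAT boxes. A match describes these letters and shows no binding.

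Over all 160 start windows under internal-start peaks, the 250 bases before the start had a median GC content of 62.8% and 20 CpG. The 2172 windows under gene-end peaks had the same medians, 62.8% and 20, and the 32817 windows of the whole table had 52.4% and 6. A GC box was present in 68.1% of the windows under internal-start peaks, in 71.0% of those under gene-end peaks and in 32.7% of all windows. For the ETS motif the shares were 21.9%, 21.7% and 6.90%, for NRF1 15.0%, 18.7% and 3.73%, and for the CCAAT box 41.3%, 45.3% and 33.8%. The AP-1 motif was rarer under peaks, at 1.25%, 2.72% and 6.75%, as were the RUNX motif, at 6.25%, 8.43% and 14.0%, and the TATA box, at 3.13%, 3.41% and 12.4%. The E box (10.0%, 10.2% and 6.02%) and the CRE (1.88%, 4.14% and 1.55%) were the remaining motifs. In each of these features but the CRE, the internal starts under peaks lay closer to the starts under gene-end peaks than to all windows. These are descriptions with no test, and windows of 1 gene can overlap.

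The internal-start and inner peaks were read very differently across the libraries. Of the 121 internal-start peaks, 117 (96.7%) held reads in all 4 libraries, against 180 of 458 inner peaks (39.3%). Gene-end peaks stood at 94.96% and intergenic peaks at 36.7%. The median internal-start peak held 9 and 20 reads with sgNTC and 10 and 6 reads with sgPrdm12, the same medians as the gene-end peaks. The median inner peak held 2 and 2 reads against 1 and 4 reads, so a single read decided in how many libraries many inner peaks were seen. Counting only inner peaks whose gene had a start window, 114 of 337 (33.8%) had reads in all 4 libraries, against 66 of 121 (54.5%) of those whose gene had none. Within the inner peaks, 17 of the 24 with a start within 1000 bases (70.8%) had reads in all 4 libraries, against 163 of the other 434 (37.6%). All 25 intergenic peaks over a start window, those of non-coding genes, had reads in all 4 libraries too, against 193 of 563 away from one (34.3%). Gene-end peaks were mostly seen in all 4 libraries either way. They stood at 1475 of 1522 over a start window (96.9%) and 357 of 408 away from one (87.5%).

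**Figure D1:**
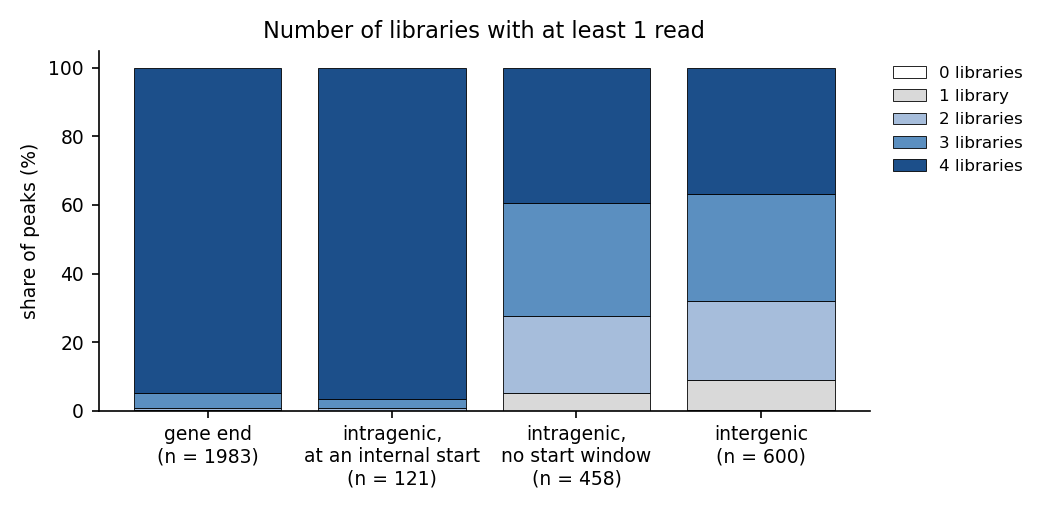
Share of peaks (vertical axis, percent) with at least 1 read in 0, 1, 2, 3 or 4 libraries, for gene-end, internal-start, inner and intergenic peaks. The internal-start bar, with 96.7% in all 4 libraries, matches the gene-end bar, and the inner bar, with 39.3%, lies near the intergenic bar.

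Position and size also separated them. Internal-start peaks had a median width of 416 bases and inner peaks 327 bases, beside 417 bases for gene-end and 337.5 bases for intergenic peaks. Internal-start peaks lay at a median of 12.3% of the gene's length from its 5′ end, and 82 of the 117 with a position lay in the first 25%. Inner peaks were spread along their genes, with 97, 92, 72 and 76 of 337 peaks in 4 successive stretches of equal length and a median position of 44.9%. The genes holding inner peaks were long, with a median span of 104673 bases, against 35312 bases for internal-start peaks and 17146 bases for all 21900 protein-coding genes. A longer gene offers more room to hold a peak away from its ends. Per 10 megabases of available sequence there were 6.09 peaks inside gene spans (601 in 987 megabases) and 3.91 between them (600 in 1535 megabases, from the first to the last gene of each chromosome).

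The limit of 1000 bases ran through a continuous distribution. Inside gene spans, 87 peaks lay more than 500 and up to 1000 bases from an end and held a median of 38 reads over the 4 libraries, while 91 lay more than 1000 and up to 2000 bases away with a median of 40 reads. The 332 members more than 10000 bases from any end had a median of 10 reads. Just outside the rule lay peaks at Fcho2 (990 bases) and Acap1 (996 bases), and just inside lay peaks at Aktip (1017 bases) and Abcg1 (1021 bases). The members fell in 574 genes on 20 chromosomes. Of these genes, 549 held 1 member, 23 held 2, and only Sfi1 (9) and Ppm1h (3) held more; 5 peaks overlapped more than 1 gene. No member overlapped a miRNA hairpin.

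The 10 highest internal-start peaks lay at Hnrnph1, Smg9, Cirbp, Anapc15, Ccdc12, Hnrnpl, Sp2, Dcaf11, Pigv and Rfx3. Hnrnph1, which encodes a splicing regulator (chr11:50377233-50378125), had 32 and 58 reads with sgNTC and 25 and 22 with sgPrdm12. Scaled to 10000 reads in peaks, its level was 12.2 and 10.8 against 9.31 and 11.6. The groups overlapped. Smg9, a nonsense-mediated decay factor (chr7:24399119-24399888), held 28 and 49 reads against 26 and 20, or 10.6 and 9.11 against 9.69 and 10.6 per 10000. Cirbp, a cold-inducible RNA-binding protein (chr10:80167687-80168477), held 28 and 51 reads against 23 and 20, or 10.6 and 9.48 against 8.57 and 10.6 per 10000. At all 3 genes every library lay in a narrow band with the groups interleaved. Anapc15, a subunit of the anaphase-promoting complex (chr7:101896210-101896863), held 26 and 45 reads against 31 and 16, and its peak lay 74.1% of the way along the gene.

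Some hosts of internal-start peaks were then grouped by role, in groups put together after their values had been seen and so described without a test. The groups do not hold every host gene of a role, so their sums describe the chosen genes only. The 10 peaks at genes of RNA binding and processing (Hnrnph1, Hnrnpl, Hnrnpf, Cirbp, Smg9, Srrm2, Larp4, Ddx50, Unk and Bclaf1) summed to 76.3 and 65.6 reads per 10000 in sgNTC and 67.4 and 65.0 in sgPrdm12. The 8 peaks at chromatin genes (Dnmt1, Kat5, Hdac4, Sin3a, Spin1, Ing1, Msl1 and H3f3b) summed to 33.8 and 38.1 against 42.8 and 34.9. All 18 of these chosen peaks had reads in all 4 libraries, as did 96.7% of all internal-start peaks. The sgNTC and sgPrdm12 libraries overlapped in both sums.

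Dnmt1, the maintenance DNA methyltransferase (chr9:20952389-20953125), held 14 and 43 reads in sgNTC and 25 and 6 in sgPrdm12, or 5.32 and 7.99 against 9.31 and 3.17 per 10000. Its highest and its lowest library thus both carried the Prdm12 guide. Kat5, the acetyltransferase TIP60 (chr19:5609621-5610238), held 9 and 33 reads against 16 and 19, with a log2 fold change of 0.66 ± 0.41 (SE). Hdac4, a class IIa histone deacetylase, held 17 and 31 reads against 20 and 8 at its internal start (chr1:92180340-92181027). None of these passed the test given below.

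The 4 genes grouped under sterol and sugar metabolism had 5 internal-start peaks between them. Srebf1, a regulator of lipid synthesis genes, had one peak at chr11:60220471-60220775, with 13 and 13 reads in sgNTC and 9 and 2 in sgPrdm12. Its other peak, at chr11:60222615-60223057, held 6 and 16 reads against 14 and 4. Neither reached the count minimum. Insig2, which retains the sterol sensor in the endoplasmic reticulum (chr1:121327515-121327997), held 10 and 21 reads against 10 and 1. Hk1, a hexokinase (chr10:62340301-62340722), held 10 and 20 against 17 and 6, and Pfkfb4, an enzyme that sets fructose bisphosphate levels, held 3 and 23 against 5 and 3. The 5 peaks summed to 15.95 and 17.3 reads per 10000 in sgNTC and 20.5 and 8.46 in sgPrdm12, so the low value came from sgPrdm12 replicate 2 alone.

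The 3 peaks grouped under calcium and receptor response, at Stim1, Egr2 and Camkk1, summed to 9.49 and 13.6 reads per 10000 in sgNTC and 11.5 and 11.6 in sgPrdm12. Stim1, the calcium sensor that opens store-operated channels (chr7:102266725-102267728), held 9 and 44 reads in sgNTC and 11 and 12 in sgPrdm12. Its scaled level was 3.42 and 8.18 against 4.10 and 6.35 per 10000, so the spread within sgNTC was wider than the gap between the groups. Egr2, a transcription factor induced by receptor signals (chr10:67537251-67537793), held 8 and 20 reads against 17 and 5 and did not reach the count minimum.

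**Figure D2:**
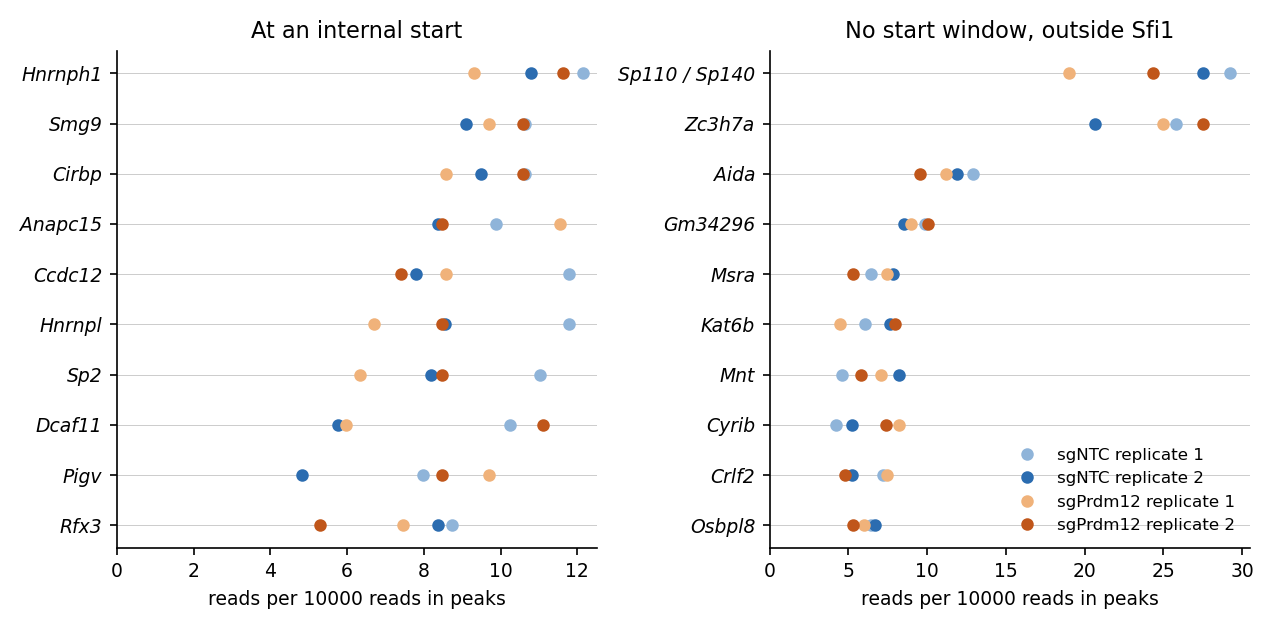
Level in each library (horizontal axis, reads per 10000 reads in peaks; 1 point per library) of the 10 highest internal-start peaks on the left and the 10 highest inner peaks outside Sfi1 on the right. At Smg9 the points of the groups lie among each other, and the Sp110 and Sp140 peak and the Zc3h7a peak stand above the rest.

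The highest inner peaks were of another kind. Of the 10 highest intragenic peaks, 6 lay in Sfi1, a gene for a centrin-binding protein on chromosome 11. All 9 Sfi1 peaks had reads in all 4 libraries, and together they took 1.496% and 1.67% of reads in sgNTC and 1.39% and 1.76% in sgPrdm12. The tallest (chr11:3141313-3142754) held 93 and 202 reads against 75 and 73. Whether these reads come from 1 locus or from near-identical copies cannot be told from the table, so they are uncertain as a measure of Sfi1. The start windows used held none for Sfi1, so an internal start could not be looked for. The peak shared by Sp110 and Sp140, related nuclear body genes (chr1:85591158-85593402), held 77 and 148 reads against 51 and 46, or 29.2 and 27.5 against 19.0 and 24.3 per 10000. Both sgPrdm12 libraries lay below both sgNTC libraries there, and the log2 fold change was -0.33 ± 0.28 (SE), at an adjusted p of 0.984 in edgeR. As members of a gene family these genes carry the same doubt about shared reads. Zc3h7a, a zinc finger gene (chr16:11143951-11144287), held 68 and 111 reads against 67 and 52, or 25.8 and 20.6 against 24.96 and 27.5 per 10000. Aida (chr1:183299143-183299431) held 34 and 64 reads against 30 and 18. The Zc3h7a peak held 298 reads within 337 bases and the Aida peak 146 within 289. Whether those reads come from 1 locus cannot be told here either.

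The steadiest tested peak was an inner one. Rexo5, an RNA exonuclease gene (chr7:119835774-119836445), held 5.70 and 5.58 reads per 10000 in sgNTC and 5.22 and 5.82 in sgPrdm12, a coefficient of variation of 4.66% over the 4 libraries. The next were a Sfi1 peak (chr11:3159636-3159936) at 5.20% and the internal-start peak of Smg9 at 7.37%. They were named for their low spread, which is a description with no test. Kctd16, an auxiliary subunit gene of GABA-B receptors on chromosome 18 (40308050 to 40308396), held 26 and 44 reads against 21 and 28 and was the highest of the peaks that were not classed.

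The question of the study is whether loss of Prdm12 changes accessible regions. No intragenic peak passed the test. With 2 libraries per guide and a median standard error of 0.40 in log2 fold change, that does not show unchanged accessibility. Of the 601 members, 99 reached the count minimum and were tested among 1122 peaks of the table: 54 internal-start, 42 inner and 3 not classed. The count minimum keeps peaks with enough reads, scaled for depth, in 2 libraries. A peak can pass through 1 guide group alone, and the tested members do not stand for all members. At an adjusted p of 0.05, 0 members were called (quasi-likelihood F test in edgeR, Benjamini-Hochberg adjustment over all tested peaks), where 0% of all tested peaks were called, and the smallest adjusted p of a member was 0.925. At an unadjusted p of 0.05 there were 3 members, 1 higher and 2 lower in sgPrdm12, beside 4.72% of all tested peaks (2.58% higher and 2.14% lower). DESeq2's Wald test on the same peaks called 0 members and gave 1 at an unadjusted p of 0.05, beside 0.713% of all tested peaks. With the replicate number as a block, edgeR called 0 members again but gave 8 at an unadjusted p of 0.05, 5 higher and 3 lower, beside 6.33% of all tested peaks (3.30% higher and 3.03% lower).

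The tested members had a median log2 fold change of 0.07, with 58 above 0 and 41 below, beside a median of 0.01 for all 1122 tested peaks. The median was 0.05 for the internal-start peaks and 0.06 for the inner peaks. These medians are small against a median standard error of 0.40, and the members' median was -0.077 without sgPrdm12 replicate 2 and -0.035 without sgNTC replicate 2. The direction agreed between batch 1 and batch 2 at 42 of the 99 members and at 562 of the 1122 tested peaks. A 95% normal interval around the log2 difference in the authors' deposited table excluded 0 at 0 of the 601 members and at 1 peak overall. The median standard error in the authors' deposited table was 1.04 at internal-start peaks and 2.21 at inner peaks, so the deposited differences of inner peaks were far less precise. With errors that large, such an interval excludes 0 only at very large differences, so the few exclusions say little about change.

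**Figure D3:**
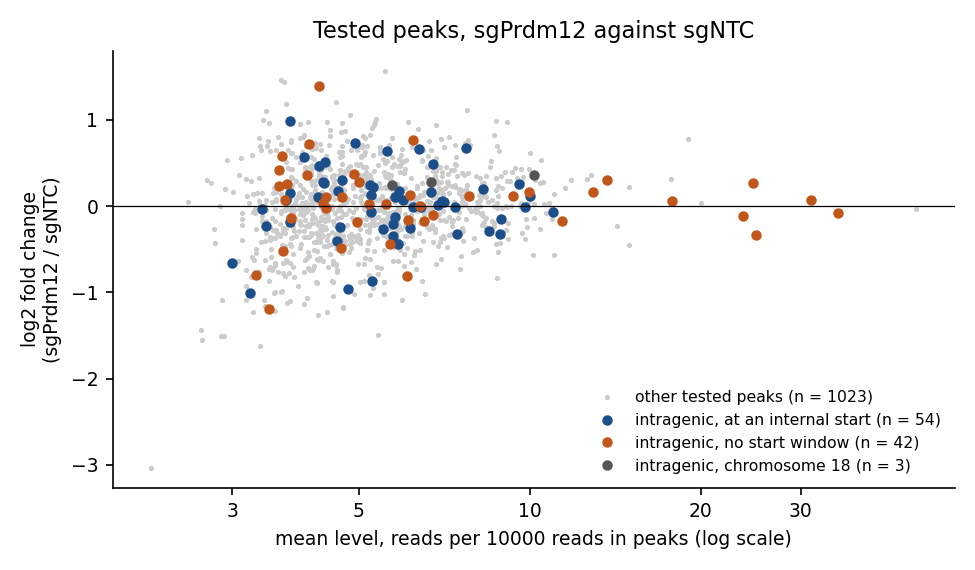
Log2 fold change of sgPrdm12 over sgNTC (vertical axis) against the mean level (horizontal axis, reads per 10000 reads in peaks, log scale) of the 1122 tested peaks, with internal-start, inner and chromosome 18 members coloured. The 99 members lie within the cloud of the other tested peaks, from -1.20 at E2f2 to 1.40 at Btbd9. E2f2 reached the count minimum through sgNTC alone and Btbd9 through sgPrdm12 alone.

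The 5 tested members with the smallest unadjusted p among those higher in sgPrdm12 were at Btbd9, Cyrib, Pigv, Mier2 and Tmem39a. Btbd9, which encodes a BTB domain protein (inner peak, chr17:30576064-30576436), held 5 and 15 reads in sgNTC and 19 and 10 in sgPrdm12, or 1.90 and 2.79 against 7.08 and 5.29 per 10000. Both sgPrdm12 libraries lay above both sgNTC libraries, and the log2 fold change was 1.40 ± 0.48 (SE), at an adjusted p of 0.925 in edgeR. This peak reached the count minimum through its sgPrdm12 libraries alone, so the filter itself favoured that separation. Cyrib, an interactor of RAC1 known to restrain actin remodelling (inner peak, chr15:63997960-63998681), held 11 and 28 reads against 22 and 14, with a log2 fold change of 0.76 ± 0.38. Pigv, an enzyme of GPI anchor synthesis (internal start, chr4:133672126-133672866), held 21 and 26 against 26 and 16, with 0.67 ± 0.33. Mier2 (internal start, chr10:79554952-79555314) held 4 and 18 against 12 and 11, and Tmem39a (internal start, chr16:38562529-38562995) held 13 and 23 against 20 and 11. At each of the 5 the groups did not overlap after scaling, and each was higher in sgPrdm12 in both batches. None passed the adjusted threshold. Leaving out 1 library moved Pigv to 0.19 (without sgNTC replicate 2) and Mier2 from 0.99 to 1.71 (without sgNTC replicate 2).

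Among those lower in sgPrdm12 the 5 were at Sys1, Khdrbs1, Mad2l2, E2f2 and Pde4dip. Sys1, a Golgi membrane protein gene (internal start, chr2:164460852-164461339), held 15 and 39 reads against 11 and 4, or 5.70 and 7.25 against 4.10 and 2.12 per 10000. The groups did not overlap, and the log2 fold change was -0.96 ± 0.41 (SE), at an adjusted p of 0.925 in edgeR. Khdrbs1, the RNA-binding protein SAM68 (inner peak, chr4:129742165-129742655), held 21 and 43 reads against 14 and 6, or 7.98 and 7.99 against 5.22 and 3.17 per 10000. Its sgNTC libraries were nearly equal and its sgPrdm12 libraries were both lower (-0.81 ± 0.38). The start windows used held none for Khdrbs1, Btbd9 or Cyrib, so an internal start of these genes could not be looked for. Mad2l2, a DNA repair adaptor (internal start, chr4:148140210-148140656), held 21 and 32 against 8 and 8. E2f2, a cell cycle transcription factor (inner peak, chr4:136177569-136178032), held 14 and 24 against 4 and 5, with a log2 fold change of -1.20 ± 0.61. Pde4dip, a centrosome and Golgi scaffold gene (internal start, chr3:97767802-97768269), held 12 and 24 against 9 and 1. Each of the 5 was lower in sgPrdm12 in both batches, and none passed the adjusted threshold. Leaving out sgPrdm12 replicate 1 moved E2f2 to -0.69, Mad2l2 from -0.87 to -0.50, Sys1 to -1.49 and Pde4dip from -1.002 to -2.85, and leaving out sgPrdm12 replicate 2 moved Pde4dip to -0.44. Groups that did not overlap were found at 13.9% of all tested peaks in the higher and 20.9% in the lower direction. Btbd9 and Mier2 reached the count minimum through sgPrdm12 alone, and E2f2 and Pde4dip through sgNTC alone. In such peaks the filter itself favours separated groups. All 10 named peaks were picked for their small p, so separated groups are no support for them. A shared direction in both batches follows from the separation and adds none.

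Intragenic peaks were also looked up in lists of genes of T cell regulation, the PRDM family and sensory neurons. Of 207 listed genes in the annotation, 15 (7.25%) had an intragenic peak, beside 2.62% of all protein-coding genes, and 29 had a gene-end peak. Gene length was not matched in this comparison. Only 2 listed genes had a tested member, both of the PRDM and histone methyltransferase list, and 0 were called. Prdm10, a zinc finger factor of the PRDM family (internal start, chr9:31280295-31280881), held 15 and 34 reads in sgNTC and 10 and 14 in sgPrdm12, or 5.70 and 6.32 against 3.73 and 7.40 per 10000. Its groups overlapped, with a log2 fold change of -0.13 ± 0.42 (SE), which turned to 0.44 without sgPrdm12 replicate 1. Prdm2, a PRDM family methyltransferase gene (inner peak, chr4:143161847-143162572), held 14 and 31 reads against 18 and 4. Its log2 fold change of -0.18 ± 0.41 turned to 0.23 without sgPrdm12 replicate 2. The start windows used held none for Prdm2, so an internal start could not be looked for.

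The other 13 listed genes had inner peaks below the count minimum, and several rested on 1 library. Cytokine and receptor genes had 5, the most of any list. Lif, a cytokine of the IL-6 family, held 8 and 9 reads in sgNTC and 3 and 2 in sgPrdm12. Il15ra, the receptor chain that presents IL-15, held 2 and 3 against 0 and 8. Tnfsf8, the ligand of CD30, held 2 and 1 against 11 and 4. Cd44, an adhesion receptor of activated T cells, held no read in 3 libraries and 5 in sgPrdm12 replicate 2. Ccr2, a chemokine receptor, held 11 reads in sgNTC replicate 1, 0 in sgNTC replicate 2 and 2 in each sgPrdm12 library. In these 5 peaks the direction of the groups was not shared.

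Among lymphocyte transcription factors, Lef1, a factor of naive and memory T cells, held 1 and 2 reads in sgNTC and 8 and 0 in sgPrdm12. Ikzf2, which encodes Helios, held 1 and 1 against 0 and 6, and Foxp1, a factor of quiescence, held 2 and 1 against 0 and 5. Each had most of its reads in 1 sgPrdm12 library and none in the other. In the AP-1, NF-kB, STAT and IRF list, Fosb held 6 and 17 against 3 and 2, and Irf2 held 7 and 1 against 0 and 0. The T cell receptor list had Cbl, a ubiquitin ligase that ends receptor signals, with 1 and 3 against 0 and 4, and Sos1, a RAS exchange factor, with 7 and 1 against 1 and 1. Ntrk3, a neurotrophin receptor gene of the sensory neuron list, held 0 and 6 against 1 and 8. None of the 14 cytotoxic effector genes listed had an intragenic peak. These peaks were too thinly read to be tested, and a gene without a peak in the table is not shown to be closed.

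The share of reads in intragenic peaks was 13.9% (95% Wilson interval 13.5 to 14.3) and 12.2% (12.0 to 12.5) with sgNTC. With sgPrdm12 the share reached 12.3% (12.0 to 12.7) and 16.02% (15.5 to 16.5). The group means, 13.1% ± 1.16 and 14.2% ± 2.59 (SD, n = 2 libraries each), differed by 1.13 percentage points, less than the spread between replicates (two-sided exact permutation test, p = 0.667). With 2 libraries against 2, the smallest p that the exact test allows is 0.333. Subtracting sgNTC from sgPrdm12 gave -1.53 percentage points within batch 1 and 3.78 within batch 2, so its direction did not hold within batches. It turned to -0.710 without sgPrdm12 replicate 2, and was 0.307 without sgNTC replicate 2, 1.94 without sgNTC replicate 1 and 2.96 without sgPrdm12 replicate 1. Intervals cover counting error only, since reads without molecular identifiers are not independent molecules.

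The 2 kinds of intragenic peak contributed unequally to this. Internal-start peaks took 4.90% (4.64 to 5.17) and 4.96% (4.78 to 5.15) of reads in sgNTC and 5.06% (4.81 to 5.33) and 4.55% (4.27 to 4.86) in sgPrdm12. The 4 libraries lay between 4.55% and 5.06%, with group means of 4.93% ± 0.04 and 4.81% ± 0.36 (SD, n = 2; two-sided exact permutation test, p = 1.00). Inner peaks took 8.496% (8.16 to 8.84) and 6.88% (6.67 to 7.10) in sgNTC and 6.82% (6.53 to 7.13) and 10.8% (10.4 to 11.3) in sgPrdm12. Their group means were 7.69% ± 1.14 and 8.81% ± 2.81 (p = 1.00, same exact test). For every internal-start read there were 1.73 and 1.39 inner reads in sgNTC and 1.35 and 2.37 in sgPrdm12. The inner difference came to -1.67 (batch 1) and 3.92 (batch 2) percentage points; over the groups it was 1.12, and -0.865 when sgPrdm12 replicate 2 was left out.

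**Figure D4:**
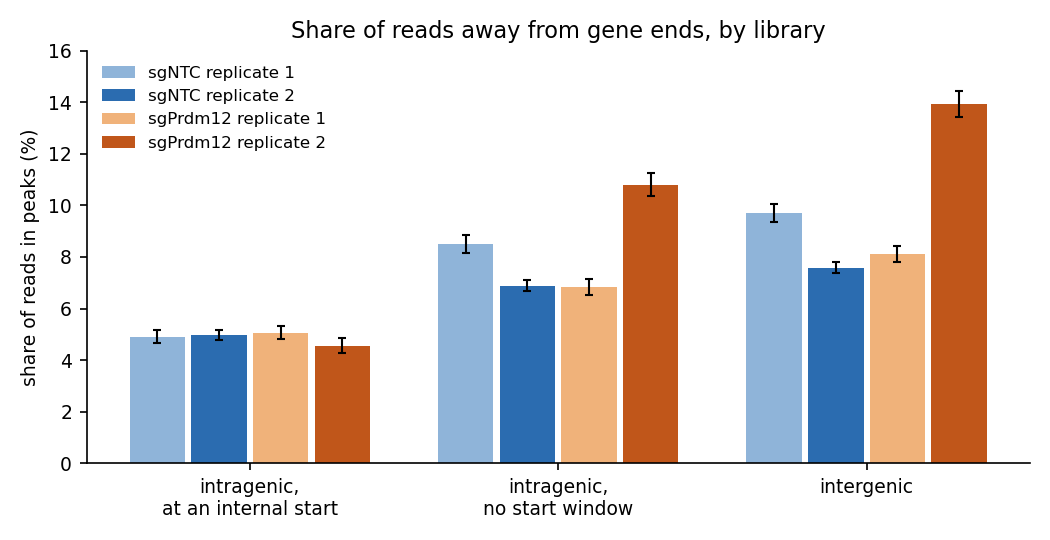
Share of reads in peaks (vertical axis, percent; 95% Wilson intervals, counting error only) taken by internal-start, inner and intergenic peaks in each of the 4 libraries. Internal-start shares are between 4.55% and 5.06%, while inner and intergenic shares are highest in sgPrdm12 replicate 2, at 10.8% and 13.9%.

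Inner peaks were also summed by the number of libraries in which they had reads. The 180 inner peaks with reads in all 4 libraries took 5.88% and 5.96% of reads in sgNTC and 5.44% and 6.36% in sgPrdm12. The 278 with reads in fewer libraries took 2.62% and 0.920% in sgNTC and 1.39% and 4.44% in sgPrdm12. A peak without reads in a library varies by the way the split is made, so these sums are a description. Intergenic peaks took 9.70% and 7.58% against 8.11% and 13.9%, highest in sgPrdm12 replicate 2 and lowest in sgNTC replicate 2. Depth moved with it, since sgPrdm12 replicate 2 was the smallest library and sgNTC replicate 2 the largest; its part in the result was not tested.

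Away from gene ends, the intragenic peaks held 58.9% and 61.8% of reads in sgNTC and 60.4% and 53.5% in sgPrdm12, the rest being intergenic. The group means were 60.3% ± 2.05 and 56.9% ± 4.85 (SD, n = 2; two-sided exact permutation test, p = 0.667). Within batch 1 they differed by 1.52 percentage points and within batch 2 by -8.25. It was -3.36 over all libraries and 0.0698 without sgPrdm12 replicate 2, and otherwise -1.91 without sgNTC replicate 2, -4.81 without sgNTC replicate 1 and -6.80 without sgPrdm12 replicate 1. The intergenic excess of sgPrdm12 replicate 2 was thus larger than its intragenic excess.

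Many inner peaks rested on a single library. Counting peaks with at least 5 reads in 1 library and at most 2 in the other 3 together, 133 of 458 inner peaks (29.0%) met the rule, against 1 of 121 internal-start peaks (0.826%). Intergenic peaks stood at 30.7% and gene-end peaks at 0.504%. The inner peaks of this kind belonged to sgNTC replicate 1 in 49 cases, sgNTC replicate 2 in 6, sgPrdm12 replicate 1 in 18 and sgPrdm12 replicate 2 in 60. After every library had been thinned at random to 18909 reads, the numbers were 39, 3, 22 and 115. As the smallest library, sgPrdm12 replicate 2 lost no reads in the thinning, so its number could not fall, and its place there says nothing about depth. With a minimum of 8 reads instead of 5, 23 inner peaks met the rule, with 9 and 3 in the sgNTC libraries and 3 and 8 in the sgPrdm12 libraries. The 18 intergenic peaks divided into 8 and 4 against 3 and 3. At that minimum sgPrdm12 replicate 2 no longer had the most.

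Those with the most reads, up to 2 per library, lay in genes of varied function. Zfp536, a zinc finger gene of neural cells (chr7:37452290-37452728), held 9 and 2 reads in sgNTC and none in sgPrdm12, and Flt1, a receptor of vascular endothelial growth factor (chr5:147589875-147590131), held 9 and 1 against none. Eml1, a microtubule-associated protein gene, held 2 and 10 reads against none, and a Madd peak (chr2:91182285-91182538) held 1 and 8 against 1 and 0. Sfxn5, a mitochondrial carrier gene, held 0 and 1 against 9 and 0, and Naa30, an acetyltransferase subunit gene, held 0 and 1 against 8 and 1. Zfp94 (chr7:24307504-24307843) held 0 and 1 against 0 and 10, and a Mcc peak on chromosome 18 held reads only in sgPrdm12 replicate 2, where it had 10. In all, 2 of the 3 peaks of Ppm1h, a phosphatase gene, followed sgPrdm12 replicate 2 as well, with 5 and 8 reads there and 2 and 3 in the other libraries together. The third Ppm1h peak did not, with 4 and 11 reads in sgNTC and 3 and 1 in sgPrdm12.

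**Figure D5:**
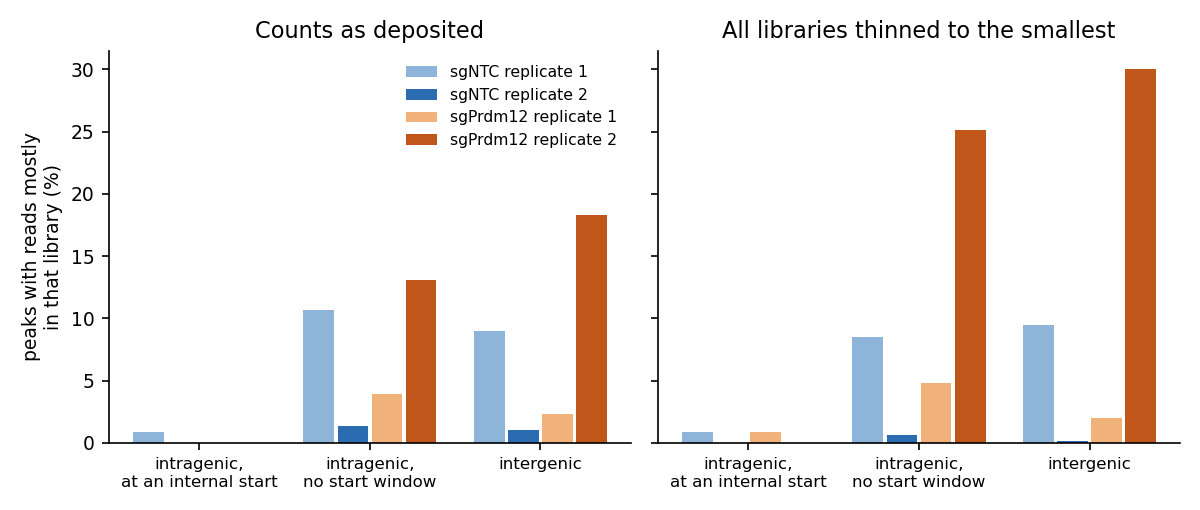
Share of internal-start, inner and intergenic peaks (vertical axis, percent) that have at least 5 reads in the library shown and at most 2 in the other 3 together, with counts as deposited on the left and all libraries thinned to 18909 reads on the right. Such peaks are nearly absent among internal-start peaks and are most frequent in sgPrdm12 replicate 2 among inner and intergenic peaks.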

How the data were processed

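ATAC-seq was performed on 4 libraries, 2 per guide. The authors deposited raw read counts per peak for 1 set of regions on GRCm38, per the file headers and the submitters' processing notes, which list Bowtie2, MACS2, cutadapt, DiffBind, Picard, ChIPseeker and HOMER without versions or order. The deposited table also holds the authors' log2 group means and log2 difference, and a standard error of it, a score column in which no sample has its own value. The sources used here do not say if MACS2 saw single or pooled libraries, so a peak may be listed because of 1 library.

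Peaks were classed with RefSeq gene spans and start windows of GRCm38.p6; orientation of the windows was checked on 1839 overlapping pairs of opposite strand, and 1839 were reverse complements. Levels are reads per 10000 reads in peaks. The test was edgeR 4.0.16 (R 4.3.3), quasi-likelihood, TMM scaling, filterByExpr with its minimum count of 10, Benjamini-Hochberg adjustment at 0.05; standard errors are the coefficient over the square root of F. The code was tested on simulated data. DESeq2 1.42.0, other scalings, no filter, other distances and left-out libraries were alternatives. Replicate numbers mark the labelled batches and so pair the libraries; deviations from group means of same-numbered libraries had a correlation of 0.06 over 1122 peaks.

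Members, lists, tests and naming rule were chosen with earlier results of these data known. The rule named the 10 highest members, the 5 smallest p in each direction, list members, genes with at least 3 members, 2 members per library among those resting on 1 library, and the 3 steadiest. Others, such as the role groups, the internal-start genes and the lower inner peaks, were chosen after their values were seen.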

Additional observations from a re-analysis of the deposited data

Results flagged for a closer look

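Several shares of reads went in opposite directions in the 2 batches, each batch holding 1 library of either group; no test compared the batches. The sgPrdm12 minus sgNTC difference in batch 1 and batch 2 was -1.53 and 3.78 percentage points for all intragenic peaks, -1.67 and 3.92 for inner peaks, and -1.56 and 3.84 for inner peaks outside Sfi1. It was 0.164 and -0.409 for internal-start peaks and -0.110 and 0.0830 for the 9 Sfi1 peaks, both small beside the inner peaks. The intragenic share of reads away from gene ends differed by 1.52 and -8.25 percentage points.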

How the results depend on the processing

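The count of called peaks was 0 under every alternative run with edgeR and DESeq2, for members and for the whole table. In the main edgeR test, members at an unadjusted p of 0.05 numbered 3 of 99, beside 53 of 1122 peaks over the table. Without a count filter they numbered 15 of 601, beside 109 of 3183. With the replicate block they numbered 8 of 99, beside 71 of 1122. DESeq2 gave 1 of 99, beside 8 of 1122. The block changed no call, but its smallest adjusted p in edgeR lay just above the threshold, at 0.0517 over the table and 0.619 for a member. In the main edgeR test these were 0.760 and 0.925. The members' median log2 fold change was 0.22 without a filter, over all 601 members, and ranged from -0.077 to 0.12 with 1 library left out. Without the filter many fitted values rest on a few reads. The intragenic share and the intragenic share away from gene ends kept the direction of their differences at 500, 2000 and 5000 bases. They also kept it without the 10 highest members and without Sfi1 (chosen after seeing the data). Limited to peaks with reads in all 4 libraries, the 2 differences were 0.277 and -1.83. Their totals then covered such peaks only, so 0.277 is not on the same measure as the main difference over all reads. At -1.83 the groups did not overlap, with p = 0.333, the smallest that the exact permutation test allows. Over all reads, the inner difference turned from 1.12 to -0.0231 in peaks with reads in all 4 libraries. With 1 library left out the differences ranged from -0.710 to 2.96 for intragenic peaks, -0.865 to 3.11 for inner peaks, -0.378 to 0.132 for internal-start peaks and -6.80 to 0.0698 for the intragenic share away from gene ends. Each turned without sgPrdm12 replicate 2, and the cause was not tested. The mean of within-batch differences (the replicate block) equals the group difference for shares, 1.13 for intragenic peaks. Members resting on 1 library numbered 139, 26 with a minimum of 8 reads, and 188 after thinning; fewer reads pass a higher minimum by construction. Of the 12 named fold changes, 2 turned with 1 library left out: Prdm10 ranged from -0.73 to 0.44 (without sgPrdm12 replicate 1) and Prdm2 from -1.23 to 0.23 (without sgPrdm12 replicate 2). The median inner peak had 10 reads over the 4 libraries, and 42 of 458 inner peaks could be tested.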

Other observations

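Among the 8 internal-start peaks that overlapped a non-coding gene's start only, the highest counts were at 1700028E10Rik inside Stard13 (chr5:151368530-151369122), with 7 and 36 reads in sgNTC and 17 and 10 in sgPrdm12. The lowest counts were at Gm52900 inside Osbpl3, with 2 and 12 against 4 and 1. Cipc, an inhibitor of the circadian factor CLOCK, had a peak over the Gm32934 start with 8 and 2 reads against 12 and 3, so replicate 1 was higher in both groups despite the depth of sgNTC replicate 2.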
